A study of Mus musculus with 3 samples.

Results

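Denervation of skeletal muscle was examined in 1 pair of small RNA libraries, 1 from fibro/adipogenic progenitors (FAPs) of normal muscle and 1 from FAPs of muscle 3 weeks after surgical sciatic denervation, both from wild-type (WT) mice. The comparison covers every mature mouse miRNA name whose mean level reached 10 CPM (counts per 1000000 counts of the library) over these 2 libraries, which gave 355 of the 659 mature mouse names and of the 1097 items in the deposited table. The cells were primary, taken straight from muscle and not cultured, and the normal cells had no injury. The series has 1 more library, from muscle 5 days after cardiotoxin, which is used only where stated. The labels do not state how many animals stand behind a library, their age or sex, or how the cells were purified. The normal library held 4471365 counts and the denervated library 7193088, and the 355 miRNAs made up 99.0% of the counts in both.

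FAPs are stromal cells that lie between muscle fibres. They can form fibroblasts and adipocytes, and after injury they support the muscle stem cells. When a muscle loses its nerve the fibres shrink, and fibrous and fatty tissue can build up between them. A miRNA is a short RNA, cut from 1 arm of a hairpin precursor, that guides the silencing of mRNAs. It finds them mainly through its seed, bases 2 to 8 from its 5′ end, so miRNAs with the same seed can share targets.

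There was 1 library on each side, so the differences below have no replicates behind them and no test between conditions could be run. Folds are ratios of CPM and are followed in parentheses by a 95% interval, exact conditional binomial (Clopper-Pearson), that covers counting error only. A miRNA was called higher or lower when its log2 ratio, taken from CPM plus 1, reached 2-fold. In such libraries fewer cells of a type and less RNA per cell cannot be told apart.

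Selected miRNAs that stood more than 2-fold apart between the libraries are shown first. Their mature sequences are given 5′ to 3′ from RefSeq (GRCm38.p6) with the seed in capitals. Of the 355 names, 318 had a RefSeq mature entry. miR-34c-5p and miR-126a-5p are among the 37 named only.
miR-206-3p: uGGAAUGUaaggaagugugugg
miR-21a-5p: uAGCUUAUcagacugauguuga
miR-21a-3p: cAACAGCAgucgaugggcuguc
miR-1247-5p: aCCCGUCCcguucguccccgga
miR-31-5p: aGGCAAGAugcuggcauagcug
miR-142a-5p: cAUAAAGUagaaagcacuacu
miR-205-5p: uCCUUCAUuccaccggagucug
miR-126a-3p: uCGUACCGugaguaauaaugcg
The deposited sequence of miR-142a-5p differs from this entry in its first 8 bases, as do the deposited sequences of 35 of the 318 matched miRNAs in all. Seeds below are those of RefSeq.

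The next set is shown because its members share a seed and yet stood on opposite sides of normal. All but miR-503-5p carry the seed AGCAGCA, and miR-503-5p ends its seed with another base.
miR-15b-5p: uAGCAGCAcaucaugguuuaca
miR-15a-5p: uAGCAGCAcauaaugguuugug
miR-16-5p: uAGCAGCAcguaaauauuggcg
miR-195a-5p: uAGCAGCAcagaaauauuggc
miR-497a-5p: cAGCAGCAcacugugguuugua
miR-322-5p: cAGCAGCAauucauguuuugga
miR-503-5p: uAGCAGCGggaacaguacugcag

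The last sets are shown because a low-level member stood apart from abundant or steadier relatives, or because relatives lay in the same direction. They are the CCCUGAG seed, the seed of miR-34a and miR-34b, the seed of miR-146, and the seeds of miR-10, miR-27, miR-29 and miR-200.
miR-351-5p: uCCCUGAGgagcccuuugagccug
miR-125b-5p: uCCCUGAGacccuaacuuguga
miR-125a-5p: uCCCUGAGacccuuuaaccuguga
miR-34b-5p: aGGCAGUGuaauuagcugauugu
miR-34a-5p: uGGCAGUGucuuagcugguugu
miR-146a-5p: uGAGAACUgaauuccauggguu
miR-146b-5p: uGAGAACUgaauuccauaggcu
miR-10a-5p: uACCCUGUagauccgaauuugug
miR-10b-5p: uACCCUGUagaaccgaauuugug
miR-27a-3p: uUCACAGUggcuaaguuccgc
miR-27b-3p: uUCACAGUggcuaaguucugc
miR-29a-3p: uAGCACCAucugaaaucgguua
miR-29b-3p: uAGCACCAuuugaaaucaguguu
miR-29c-3p: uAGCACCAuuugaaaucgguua
miR-200a-3p: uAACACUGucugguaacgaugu
miR-200b-3p: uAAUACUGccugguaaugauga
miR-200c-3p: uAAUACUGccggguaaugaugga

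Most of the FAP miRNA profile was alike in the libraries. Of the 355 miRNAs, 259 (73.0%) lay within 1.5-fold of normal and 304 within 2-fold. The median log2 ratio was -0.09, though 0.00 to 0.03 under 4 of 5 other scalings, and the central 50% of ratios ran from -0.41 to 0.22. At least 2-fold higher in denervated were 24 miRNAs (6.76%), against 6.38% of all 423 table items that passed the filter. At least 2-fold lower were 27 (7.61%), against 6.62% of all items. The miRNAs make up most of those items, so these shares are nearly the same quantity. The 27 lower miRNAs count both rows of 2 equal pairs, miR-450a-1-3p with miR-450b-3p and miR-3473b with miR-3473e. Fewer than 27 are therefore separate measurements. Past 4-fold there were 8 miRNAs higher (2.25%, against 2.36% of all items) and 5 lower (1.41%, against 1.42%). Counting error alone left 17 of the higher and 24 of the lower with an interval wholly beyond 2-fold.

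Large ratios were found more often among miRNAs of low level. The filter uses the mean of both libraries. A miRNA under 10 CPM in 1 library thus passed only through the other, where it was higher. Near its edge the filter therefore favours large ratios. With a mean of 10 to 30 CPM, 20 of 76 miRNAs were past 2-fold, 7 higher and 13 lower, and the median absolute log2 ratio was 0.52. From a mean of 1000 CPM upwards, 5 of 84 were, 3 higher and 2 lower, and the median absolute log2 ratio was 0.27. Those 3 higher were miR-21a-5p, miR-34c-5p and miR-1a-3p, and the 2 lower were miR-27b-3p and miR-126a-3p.

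**Figure D1:**
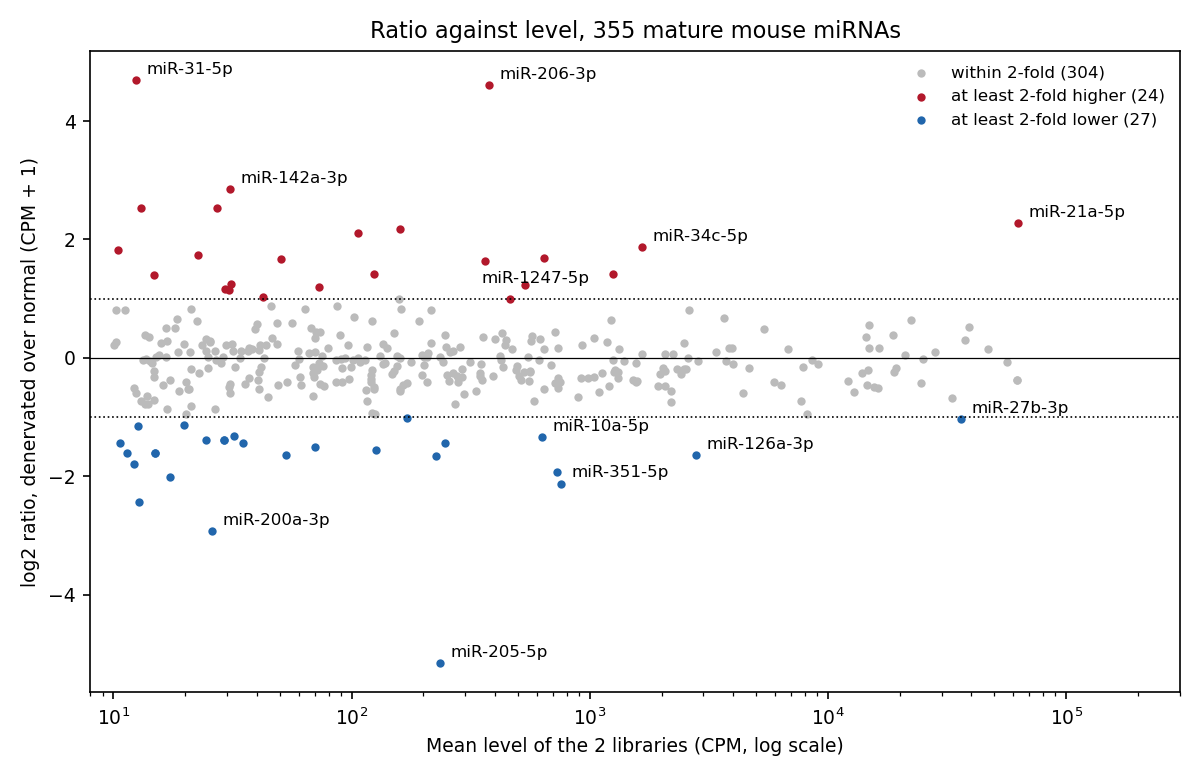
Each of the 355 points is a mature mouse miRNA, with its mean level over the 2 libraries in CPM (log scale) on the x axis and its log2 ratio of denervated over normal on the y axis; dotted lines mark 2-fold. The 24 higher miRNAs are in red and the 27 lower in blue, with miR-206-3p and miR-31-5p at the top, miR-205-5p at the bottom and miR-21a-5p alone at the far right above the line.

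Measured as a share of the library, the difference was concentrated in few miRNAs. The 148 miRNAs that gained level gained 156748 CPM together, which is 15.7% of the counts of a library. miR-21a-5p alone made 52.5% of that gain, with miR-199a-5p next (8.78%) and miR-29a-3p after it (6.29%). The 207 that lost level changed by -156501 CPM together, of which the 5 largest losses made 51.4%. miR-27b-3p held 15.98% of the loss, and miR-143-3p 9.89%. The rows of miR-99a-5p and miR-100-5p held 21.03% together, but they carried equal counts (315737.5 and 389557.5), so they are not 2 separate measurements. Of the 10 most abundant miRNAs of each library, 8 were the same, among them both of these equal rows.

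**Figure D2:**
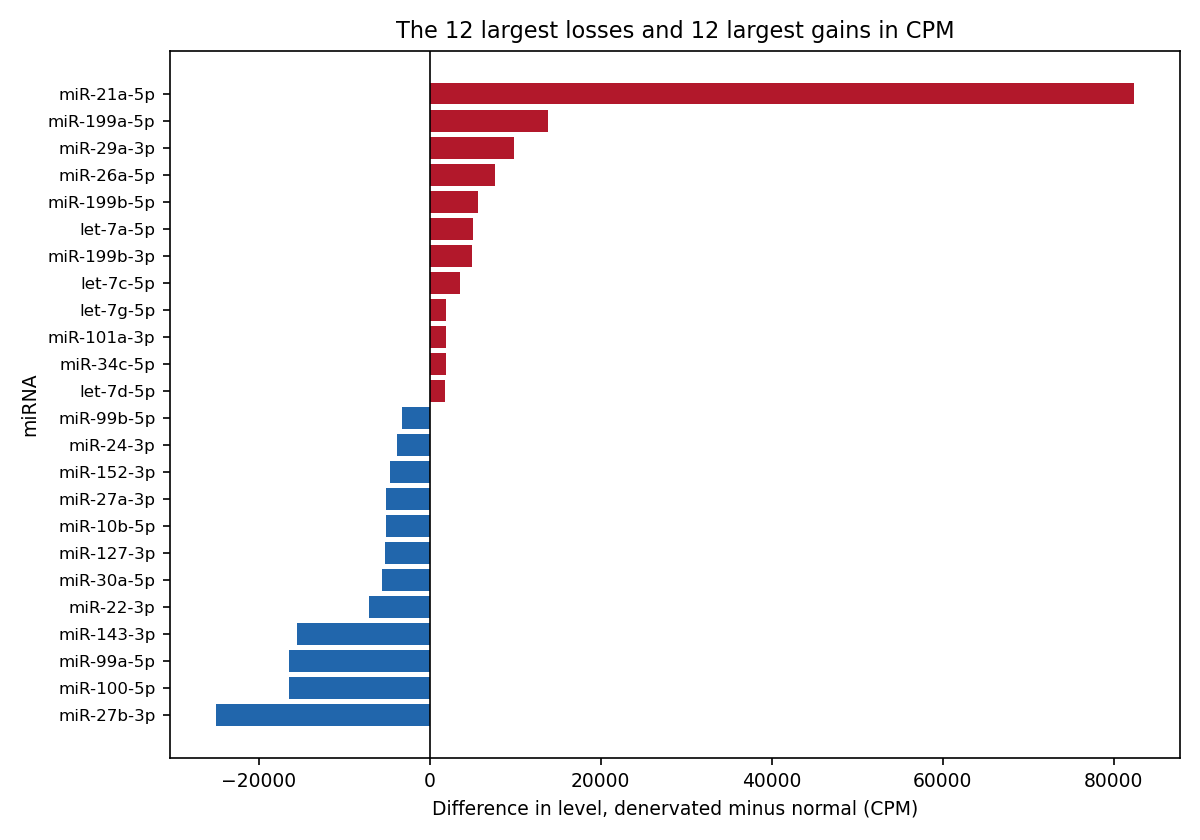
Bars give the difference in level, denervated minus normal, in CPM for the 12 miRNAs with the largest losses (blue) and the 12 with the largest gains (red). The bar of miR-21a-5p, 82339 CPM, is several times longer than that of any other miRNA shown, and miR-27b-3p has the longest bar among the losses.

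Among miRNAs linked to injury, both arms of the miR-21a hairpin were higher. miR-21a is induced in many damaged tissues and is studied as a promoter of fibrosis. miR-21a-5p was at 21423 CPM in normal and 103762 in denervated, 4.84-fold higher (4.81 to 4.88), and it went from 2.14% to 10.4% of all counts. miR-21a-3p, the less abundant arm, was at 57.7 and 263 CPM. Its fold of 4.55 (3.996 to 5.21) was close to that of the main arm. The hairpin lies on the minus strand at chr11:86584067-86584158 (GRCm38) within an annotated exon of the protein-coding gene Vmp1.

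The miRNAs of striated muscle were all higher. miR-206-3p, which is made in muscle fibres and muscle precursor cells and promotes their differentiation, was at 28.9 CPM in normal (129 counts) and 728 in denervated (5233 counts). This was 25.2-fold higher (21.2 to 30.3), and the widest ratio in that direction among the 204 miRNAs at or above a mean level of 100 CPM. In mice miR-206 is known to be induced by denervation and to favour regrowth of neuromuscular synapses. It shares a noncoding transcript, Gm28653 on chromosome 1, with miR-133b, and its hairpin is at chr1:20679010-20679082 on the plus strand. miR-133b-3p was at 9.91 and 35.2 CPM, 3.55-fold higher (2.59 to 5.04). miR-1a-3p, which has the seed of miR-206 and is the most abundant miRNA of adult fibres, was at 681 and 1825 CPM, 2.68-fold higher. miR-133a-3p was at 176 and 549 CPM, and its other arm miR-133a-5p at 7.72 and 21.9 CPM.

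All 5 muscle fibre miRNAs at or above the filter, among them both arms of miR-133a, were thus at least 2-fold higher, against 6.38% of all items. Their median log2 ratio was 1.64 against -0.10 over all 423 items. miR-206-3p stood apart from the others, which ranged from 2.68-fold to 3.55-fold. The normal counts of miR-133a-3p (786.33) and miR-133b-3p (44.33) are not whole. Whether these rows are separate measurements was not tested, so fewer than 5 may be. miR-133b-3p and miR-133a-5p were under 10 CPM in normal and passed the filter only through the denervated library. Over the 6 fibre miRNAs in the table the summed level went from 905 to 3162 CPM, and none of them was at 0. The 1 below the filter was miR-499-5p, at 7 and 23 counts. How far RNA of fibres or of muscle precursor cells takes part in these values was not tested.

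The miR-34 miRNAs are induced by p53 and restrain proliferation, and their members made from chromosome 9 were higher and the member made from chromosome 4 was not. miR-34c-5p was at 708 CPM in normal and 2595 in denervated, 3.66-fold higher (3.53 to 3.81). miR-34b-3p was at 23.5 and 77.3 CPM, 3.29-fold higher (2.67 to 4.09). miR-34b-5p was at 3.13 CPM (14 counts) and 22.9 CPM (165 counts), 7.33-fold higher (4.24 to 13.7). miR-34c-3p, below the filter, was at 6 and 89 counts. The 4 at or above the filter had a median of 1.77, and the 7 in the table a summed level of 871 and 2825 CPM. miR-34a-5p was at 130 CPM in normal and 113 in denervated, with a log2 ratio of -0.21, apart from the rest. The miR-34b and miR-34c hairpins are neighbours on the minus strand of chromosome 9, at chr9:51103562-51103645 and chr9:51103034-51103110, with no other annotated gene on that strand.

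miR-1247-5p, which is made from an exon of the noncoding gene Dio3os at the end of the imprinted Dlk1-Dio3 region, was at 303 CPM in normal and 980 in denervated. It was 3.24-fold higher (3.05 to 3.43). It was the only one of the 60 listed miRNAs of that region past 2-fold, and the other 59 ranged from -0.78 (miR-673-3p) to 0.51 (miR-376a-3p) in log2 ratio. Over all items 13% were past 2-fold in either direction. The list's median of -0.05 was above 0 under 4 of 5 other scalings. Within the region the members of the cluster with miR-127 and miR-433 had a median of -0.31 over 17 miRNAs, with miR-127-3p at 18290 and 13016 CPM. The 39 of the next cluster downstream had a median of 0.03.

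**Figure D3:**
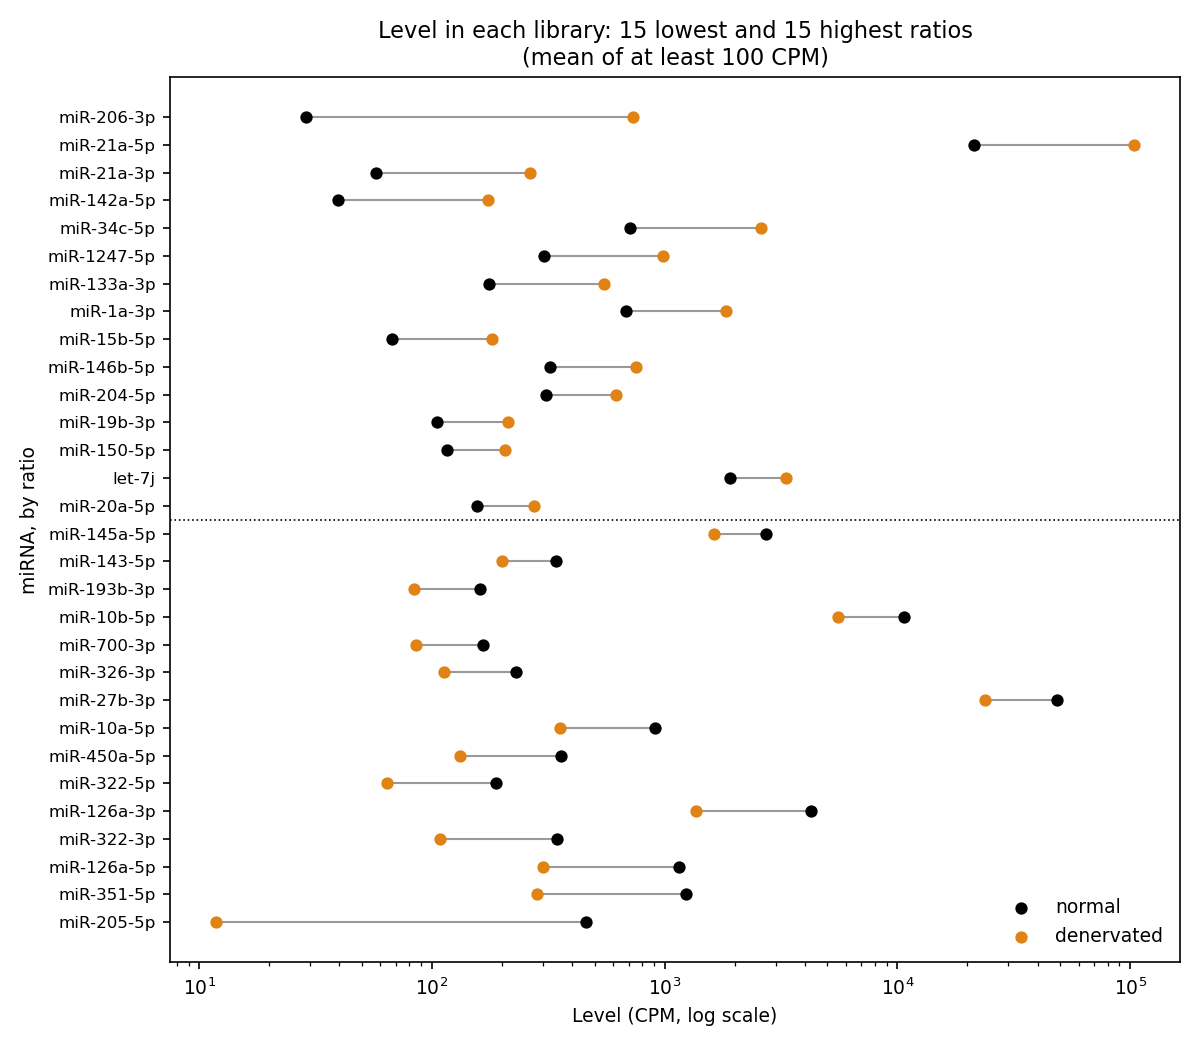
Levels in CPM (log scale) in the normal library (black) and the denervated library (orange), joined by a line, for the 15 miRNAs with the lowest and the 15 with the highest log2 ratios among the 204 whose mean level reached 100 CPM. The lines of miR-206-3p and miR-205-5p are the longest, and the levels shown run from 11.8 CPM (miR-205-5p, denervated) to 103762 CPM (miR-21a-5p, denervated).

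Several leukocyte miRNAs were higher, from low levels. miR-142a, found across blood cell lineages, was at 39.4 and 174 CPM for miR-142a-5p, 4.42-fold higher (3.77 to 5.199). Its other arm, miR-142a-3p, went from 30 to 394 counts, 8.16-fold higher (5.63 to 12.3). miR-223-3p, a miRNA of neutrophils and monocytes, went from 33 to 340 counts, 6.40-fold higher (4.47 to 9.46). miR-155-5p, induced in activated immune cells, was at 18.8 and 42.5 CPM, 2.26-fold higher (1.77 to 2.92). The lymphocyte miRNA miR-150-5p was at 116 and 206 CPM, under 2-fold, and miR-342-3p was at 234 and 238 CPM. Over the 11 leukocyte miRNAs in the table the summed level went from 434 to 775 CPM. miR-223-5p, miR-511-3p and miR-511-5p were at 0 in both libraries, and a count of 0 allows up to 0.671 CPM in normal and 0.417 in denervated. 4 of the 6 at or above the filter were at least 2-fold higher, against 6.38% of all items, with a median of 1.63. The 4 include both arms of miR-142a. miR-142a-3p (6.71 CPM in normal) and miR-223-3p (7.38 CPM) passed the filter only through the denervated library, so the filter favoured their calls. Below the filter, miR-342-5p was at 52 and 55 counts and miR-150-3p at 0 and 41. What part leukocyte RNA has in the other differences was not tested.

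Of miRNAs that answer to NF-kB signalling, miR-146b-5p was at 320 CPM in normal and 750 in denervated, 2.34-fold higher (2.21 to 2.49). Its relative miR-146a-5p, with the same seed, was at 584 and 449 CPM. The sum of the pair was therefore at 904 and 1199 CPM, 1.33-fold higher. miR-132 is induced by CREB, a transcription factor activated by growth signals. miR-132-5p was at 18.1 and 44.2 CPM, 2.44-fold higher (1.91 to 3.15), and miR-132-3p at 77.6 and 126 CPM, with a log2 ratio of 0.69. Of the 6 miRNAs of this list, 3 were at least 2-fold higher, against 6.38% of all items, and 0 lower, against 6.62%. Besides miR-146b-5p and miR-132-5p the 3 include miR-155-5p, the same measurement that is counted among the leukocyte miRNAs. The list's median was 0.92.

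A few other miRNAs were higher. miR-31-5p, which is expressed in quiescent muscle stem cells and in other lineages, had a count of 0 in normal and 179 counts (24.9 CPM) in denervated. Set against a floor of 3 counts in normal the ratio was 37.1, and the exact counting interval starts lower, at 29.9-fold. It was the single member with a count of 0 in either library. miR-204-5p, linked to adipocyte and bone cell fate, was at 308 and 617 CPM. Its interval, 1.89 to 2.13, spans the threshold, and its log2 ratio was under 1 when the total of mature mouse rows was used. miR-3535 was at 43.6 and 102 CPM, 2.33-fold higher (1.99 to 2.74). miR-451a, made in red blood cells, went from 18 to 121 counts, while the more abundant erythroid miRNA miR-486a-5p was at 61.8 and 78.4 CPM. Those 2 were the erythroid miRNAs at or above the filter, and the 5 in the table summed to 69.4 and 101 CPM.

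miRNAs of the miR-17-92 clusters, which favour cell division, leaned higher without large folds. miR-19a-3p was at 17.7 and 41.0 CPM, 2.32-fold higher (1.81 to 3.01), and was the only one of the 11 called. That is near the 6.38% of all items that were called higher. miR-19b-3p was at 106 and 211 CPM, a log2 ratio of 0.99 just short of the call, and miR-20a-5p at 157 and 276 CPM. The 4 members placed in the cluster on chromosome 14 had log2 ratios from 0.61 to 1.17. The 5 in the paralogous cluster on chromosome 5, with miR-25 and miR-93, ran from -0.41 to 0.38. The median over the 11 was 0.61.

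In the other direction, the X-linked cluster of miR-322, miR-503, miR-351, miR-542 and miR-450 was lower throughout. miR-322 and miR-503 restrain the cell cycle and are induced as muscle precursor cells differentiate. miR-351-5p, its most abundant member, was at 1235 CPM in normal and 282 in denervated, 4.38-fold lower (4.16 to 4.61). miR-322-3p was at 344 and 109 CPM and miR-322-5p at 189 and 63.8 CPM, 3.17-fold and 2.97-fold lower. miR-503-5p was at 81.2 and 25.3 CPM, 3.21-fold lower (2.68 to 3.86). miR-450a-5p was at 360 and 132 CPM, 2.73-fold lower (2.52 to 2.96), and miR-542-3p at 105 and 36.1 CPM. At lower counts miR-450b-5p was at 127 and 45 counts, 4.54-fold lower (3.21 to 6.53), and miR-503-3p at 206 and 128. All 10 members at or above the filter were past 2-fold lower, against 6.62% of all items, from -1.32 to -2.13 in log2 ratio. They include both arms of miR-322, miR-503 and miR-450b, and the arms of a hairpin come from 1 precursor. miR-450a-1-3p and miR-450b-3p had equal counts (102.5 and 49), so 9 of the 10 are separate measurements at most. miR-450a-1-3p, miR-450b-3p and miR-450b-5p were under 10 CPM in denervated and passed the filter only through the normal library. The 3 below the filter were lower too, miR-351-3p at 52 and 23 counts, miR-542-5p at 56 and 37, and miR-450a-2-3p at 32 and 0. The summed level over the 13 went from 2466 to 694 CPM. Its members lie between chrX:53048008-53054327 on the minus strand, with no other gene annotated on that strand over those looked up.

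The endothelial miR-126a was lower in both arms. It is made within Egfl7 on chromosome 2 and supports vessel integrity. miR-126a-3p was at 4251 CPM in normal and 1359 in denervated, 3.13-fold lower (3.05 to 3.21). miR-126a-5p was at 1150 and 300.3 CPM, 3.83-fold lower (3.64 to 4.03). The mural cell miRNAs miR-143 and miR-145a lay in the same direction under 2-fold, with miR-143-3p at 40874 and 25395 CPM and miR-145a-5p at 2737 and 1629 CPM. All 4 arms lay between -0.66 and -0.78, with a list median of -0.72. What part endothelial or mural cell RNA has in other differences was not tested.

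Of 7 epithelial miRNAs at or above the filter, 6 were at least 2-fold lower, against 6.62% of all items (list median -1.80). miR-205-5p, a miRNA of stratified epithelium, was at 457 CPM in normal (2045 counts) and 11.8 in denervated (85 counts). Its fold of 38.7 lower (31.1 to 48.7) was the widest of all in that direction. The miR-200 family, which holds epithelial cells in their state by silencing Zeb1 and Zeb2, was lower at small counts. miR-200a-3p was at 209 and 38 counts, 8.85-fold lower (6.24 to 12.9), miR-200b-3p at 100 and 24, and miR-200c-3p at 87 and 35. miR-182-5p was 2.30-fold lower (1.73 to 3.07) and miR-183-5p 3.05-fold lower (2.03 to 4.64). miR-203-3p, of skin epithelium, was at 354 and 443 CPM, apart from the other 6 at or above the filter. Below the filter, miR-96-5p also went up, from 10 to 23 counts, while miR-141-3p was at 14 and 11 and miR-429-3p at 24 and 5. miR-183-5p, miR-200a-3p, miR-200b-3p and miR-200c-3p were under 10 CPM in denervated and passed the filter only through the normal library. The summed level of the 10 epithelial miRNAs in the table went from 955 to 491 CPM, and none was at 0. Whether the libraries held unlike amounts of epithelial RNA was not tested.

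Among miRNAs of the Hox clusters, which are expressed by position along the body axis, miR-10a-5p and miR-10b-3p were past 2-fold lower and the others at or above the filter were not. miR-10a-5p was at 906 CPM in normal and 357 in denervated, 2.54-fold lower (2.42 to 2.67). miR-10b-5p, more abundant, was at 10719 and 5569 CPM, with a log2 ratio of -0.94, and miR-10b-3p was at 51.7 and 18.4 CPM, 2.82-fold lower (2.26 to 3.51). miR-196b-5p was at 2025 and 2120 CPM, miR-196a-5p at 1102 and 872 CPM, and miR-196a-2-3p at 35 and 104 counts. miR-338, made from an intron of Aatk and known from oligodendrocytes, was lower in both arms, miR-338-3p at 161 and 94 counts and miR-338-5p at 79 and 37. The third neural miRNA at or above the filter, miR-128-3p, was at 89.3 and 104 CPM. The list's median of -1.40 rests on these 3, of which 2 are the arms of miR-338. Below the filter, miR-219a-5p went the other way, from 23 to 91 counts. Also below it were miR-9-5p at 31.3 and 46.3 counts, miR-138-5p at 7 and 6, and miR-9-3p at 2.67 and 1.67. The list's 7 miRNAs in the table summed to 157 and 143 CPM.

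In the miR-23, miR-27 and miR-24 clusters, which act in vessel growth and of which miR-27 restrains adipocyte formation, 10 of 11 members were below normal (median -0.51). Of all 355 miRNAs, 207 were below normal. Of all items, 6.62% were at least 2-fold lower, and 1 of the 11 is near that share. miR-27b-3p was the only one past 2-fold, at 48711 CPM in normal and 23709 in denervated. It was 2.05-fold lower (2.04 to 2.07), a log2 ratio of -1.04 that was -0.91 to -0.94 under 4 of 5 other scalings. miR-27a-3p, with the same seed, was at 15437 and 10292 CPM. Together the pair went from 64148 to 34001 CPM, 1.89-fold lower. Among the 260 seeds this one lost the most level but for ACCCGUA, the seed of miR-99a, miR-99b and miR-100. The ACCCGUA sum counts both of the equal rows of miR-99a-5p and miR-100-5p. miR-24-3p was at 9568 and 5785 CPM. miR-326-3p, in an intron of Arrb1, was at 230 and 112 CPM, 2.04-fold lower (1.86 to 2.24), with a log2 ratio of -0.90 to -0.93 under the same 4 scalings. miR-490-3p at 80 and 54 counts, and the equal rows of miR-3473b and miR-3473e at 191.25 and 113 counts, complete the lower miRNAs. Just short of 2-fold lower were miR-193b-3p, which supports brown adipocyte formation in mice, at 161 and 83.4 CPM, and miR-700-3p at 165 and 84.9 CPM.

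The miRNAs that mark mesenchymal cells, to which FAPs belong, were abundant in both libraries and mostly alike. Over the 16 in the table the summed level was 331829 CPM in normal and 309614 in denervated, and none was at 0. The equal rows of miR-99a-5p and miR-100-5p, not separate measurements, made 141226 and 108314 CPM of these sums. Of 14 at or above the filter, that pair counted as 2, 12 lay within 2-fold and the other 2 were miR-10a-5p and miR-10b-3p. Over all 423 items 13% were past 2-fold in either direction, and 2 of 14 is near that share. miR-125b-5p was at 58043 and 55358 CPM and miR-22-3p at 28212 and 21119 CPM. miR-199a-5p, which is linked to fibroblast activation and comes from 2 loci, 1 of them in Dnm3os, was at 32316 and 46083 CPM, 1.43-fold higher (1.42 to 1.43). miR-199b-5p was at 12015 and 17711 CPM. miR-214-3p, of the Dnm3os transcript, was at 2819 and 4517 CPM, 1.60-fold higher.

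In the miR-29 family, which silences collagen mRNAs, the 3p arms lay above normal and 1 of them, miR-29b-3p, was past 2-fold, though at a log2 ratio of 0.94 with a pseudocount of 5. miR-29a-3p was at 17463 CPM in normal and 27323 in denervated, 1.56-fold higher (1.55 to 1.58). miR-29b-3p was at 27.6 and 57.4 CPM, 2.08-fold higher (1.70 to 2.57), and miR-29c-3p at 128 and 171 CPM. The 3 together went from 17619 to 27552 CPM, and miR-29a-3p held nearly all of it. The list's median of 5 arms was 0.41.

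Other large families lay near normal. None of 13 let-7 members was past 2-fold (median -0.06, above 0 under 4 of 5 other scalings), with let-7a-5p at 16192 and 21201 CPM and let-7b-5p at 15816 and 13758 CPM. let-7j, outside that list, was at 1900.3 and 3333 CPM, a log2 ratio of 0.81, and its deposited bases 2 to 8 equal the seed of let-7a-5p. Likewise no member was past 2-fold in miR-26 (3 members, median -0.04, above 0 under 4 of 5), miR-130 and miR-301 (2, -0.12, above 0 under 1 of 5), miR-30 (9, -0.22), miR-181 (7, -0.41), miR-148 and miR-152 (6, -0.30), miR-221 and miR-222 (3, -0.15) the Clcn5-hosted cluster of the X chromosome (8, 0.09), imprinted miRNAs outside the Dlk1-Dio3 region (5, 0.36) and the Sfmbt2-hosted miRNAs (1, miR-669c-5p, 0.11). miR-30a-5p was at 18959 and 13381 CPM and miR-148a-3p at 20364 and 18160 CPM. Lists made for adipocyte formation, which count both arms of a hairpin, gave no common direction in the ratios of their members. Of 11 arms of hairpins reported to promote it 1 was higher, miR-204-5p (median -0.26). Of 8 arms of hairpins reported to restrain it 3 were higher, miR-206-3p, miR-31-5p and miR-155-5p, and 1 was lower, miR-27b-3p (median 0.18). The summed level of both lists was lower in denervated. It went from 83068 to 60316 CPM for the promoting list and from 65058 to 35852 CPM for the restraining list. Over all items 6.38% were higher and 6.62% lower, and 1 of 11 is near that share.

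**Figure D4:**
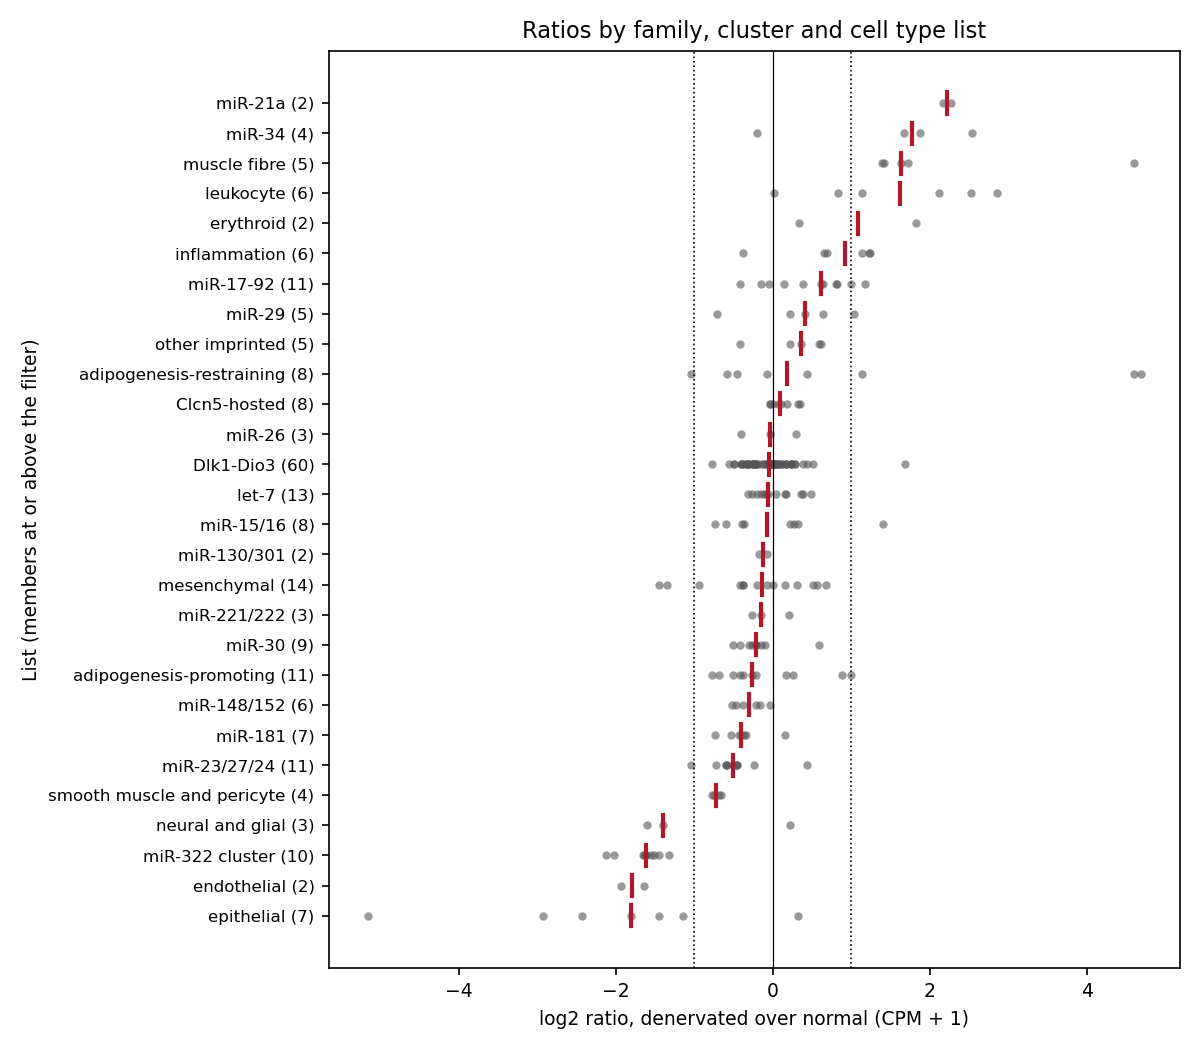
Each grey point is the log2 ratio of denervated over normal of 1 miRNA at or above the filter, by list, with the number of members in parentheses and the list median as a red bar (lists with a single member are not drawn); dotted lines mark 2-fold. The miR-21a, miR-34 and muscle fibre lists lie farthest right and the epithelial, endothelial and miR-322 lists farthest left, while the Dlk1-Dio3 list of 60 lies around 0 with miR-1247-5p as its one point past the line.

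Members of 1 seed group did not always stand on the same side. The 318 miRNAs with a RefSeq entry formed 260 seed groups, which leave out the 37 without one. Of the groups, 35 had 2 or more members, and in 5 of the 35 the log2 ratios spanned at least 1. The widest span, from -1.55 to 1.41, was in the AGCAGCA group printed above. miR-15b-5p, made from an intron of Smc4 on chromosome 3, was at 67.5 CPM in normal and 181 in denervated, 2.68-fold higher (2.37 to 3.05). miR-322-5p went the other way, from 189 to 63.8 CPM. The most abundant of the group were miR-497a-5p, at 5287 and 3497 CPM, and miR-195a-5p, at 1798 and 1372 CPM, both from chromosome 11, whereas miR-16-5p was at 1067 and 1285 CPM and miR-15a-5p at 408 and 474 CPM. The group as a whole went from 8817 to 6873 CPM, 1.28-fold lower. The wider miR-15 and miR-16 list of 8 arms, without miR-322, had 1 member past 2-fold and a median of -0.08, above 0 under 4 of 5 other scalings. That 1 of 8 is near the 13% of all items past 2-fold.

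In the CCCUGAG group a large fold of a minor member left the sum nearly unmoved. miR-351-5p shares CCCUGAG with miR-125b-5p and miR-125a-5p (25309 and 24836 CPM). The group went from 84588 to 80475 CPM although miR-351-5p was 4.38-fold lower. miR-34b-5p shares its seed with miR-34a-5p, but no sum is given for it, since miR-34c-5p of the same family is among the 37 miRNAs placed in no group. In the group of miR-25-3p (2888 and 2790 CPM), miR-32-5p was at 26.8 and 13.5 CPM and miR-92b-3p at 32.0 and 59.6 CPM, with a sum of 3906 and 4354 CPM. Of the 35 groups, 4 had sums at least 2-fold apart. They were miR-19a-3p with miR-19b-3p (2.05-fold higher), miR-200b-3p with miR-200c-3p (5.10-fold lower) and the equal rows of miR-450a-1-3p with miR-450b-3p and of miR-3473b with miR-3473e.

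The arms of a hairpin come from 1 precursor and were read in the same libraries, so they are not independent replicates. Among 95 hairpins with at least 20 counts per arm and library, 70 had arms within 0.5 of each other in log2 ratio. The median absolute difference was 0.26. Of 12 hairpins with an arm past 2-fold, 8 had both arms past 2-fold in the same direction, and 11 had both on the same side of normal. The 8 were miR-450b, miR-21a, miR-126a, miR-322, miR-503, miR-338, miR-133a and miR-142a.

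In 4 hairpins the arms were at least 2-fold apart. miR-15b had the largest difference, with 302 and 1304 counts for the 5p arm and 205 and 254 for the 3p arm. Its 5p share of both arms went from 59.6% to 83.7%, a log2 difference of 1.80 (1.48 to 2.12 by the normal approximation to counting error). In miR-664 the 5p share went from 32.9% to 16.1%, and in miR-29c from 12.6% to 6.02%. In miR-27a the 5p arm, at 606 and 823 CPM, was above normal while the dominant 3p arm was below it, and its share went from 3.78% to 7.41%. The arms of miR-324 and miR-30b differed by 0.86 and -0.83.

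**Figure D5:**
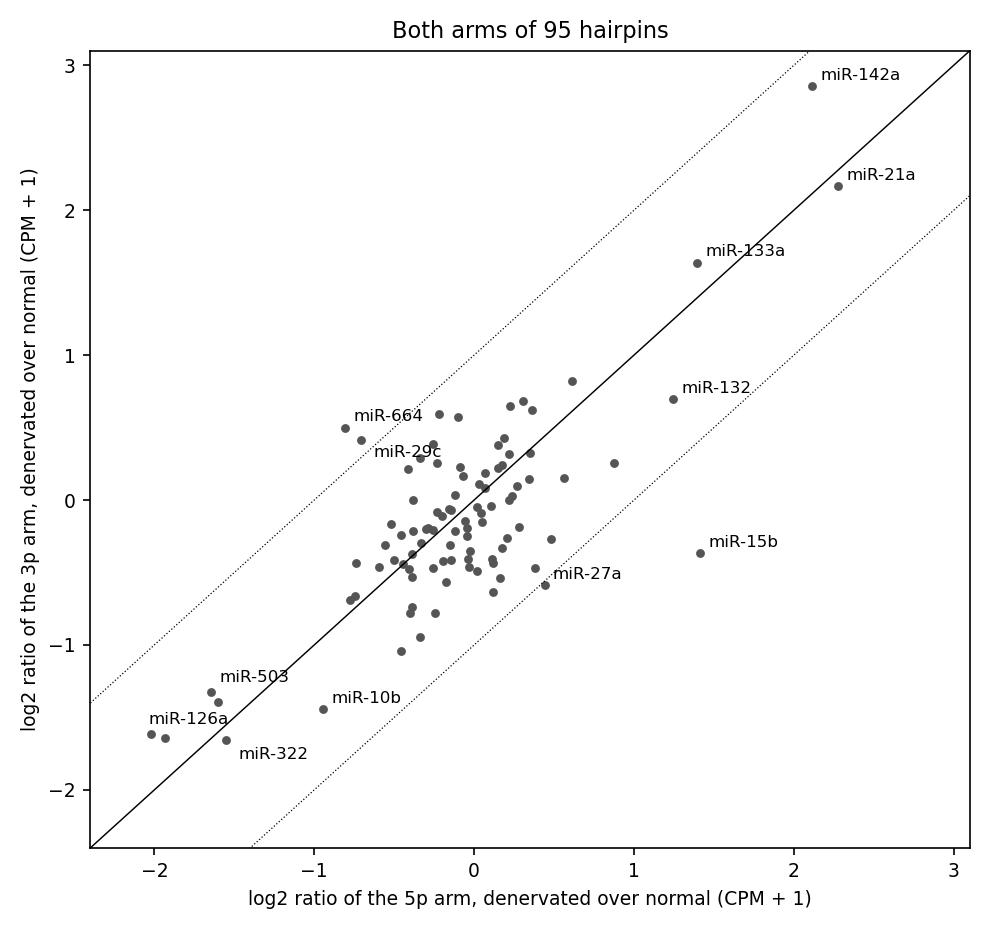
Each point is 1 of 95 hairpins, with the log2 ratio of denervated over normal of its 5p arm on the x axis and of its 3p arm on the y axis; the solid line marks equal ratios and dotted lines a 2-fold difference between arms. miR-21a and miR-142a lie at the upper right and miR-126a, miR-322 and miR-503 at the lower left, all between the dotted lines, while miR-15b lies well below them.

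By genomic position, 133 of the miRNAs fell into 20 clusters of 3 or more members on 1 strand with gaps of at most 10 kb. The miR-322 cluster had the lowest median, -1.61, and was the only one in which every member was past 2-fold. The next lowest were the miR-23b cluster on chromosome 13 (4 members, -0.60) and the miR-195a and miR-497a pair of hairpins on chromosome 11 (3 members, -0.60). The highest medians were those of the miR-17 cluster on chromosome 14 (0.81) and of miR-132 and miR-212 on chromosome 11 (3 members, 0.69).

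The cardiotoxin library shares the same normal library as its control, so levels are given side by side with no comparison of the folds. miR-21a-5p was at 538721 CPM there, miR-206-3p at 282, miR-142a-5p at 5833 and miR-31-5p at 20.4. miR-34c-5p was at 47.3 CPM there, and miR-1247-5p, miR-34b-3p and miR-205-5p were at a count of 0, which allows up to 0.825 CPM. miR-351-5p was at 699.9 CPM, miR-126a-3p at 15374 and miR-10a-5p at 6712.

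The filter of 10 CPM cut through miRNAs of similar level. Just inside it were miR-191-3p (9.17 CPM in normal, 10.8 in denervated), miR-101a-5p (9.17 and 11.3), miR-2137 (7.16 and 13.3), miR-451a (4.03 and 16.8) and miR-183-5p (16.1 and 5.28). Just outside it were miR-672-5p (5.59 and 14.2), miR-342-5p (11.6 and 7.65), miR-212-3p (8.72 and 9.73), miR-376a-5p (8.27 and 10.1) and miR-874-3p (7.16 and 11.3). Of the 304 mature names below the filter none is among the miRNAs called higher or lower above. The summed levels of the lists do include names below the filter. Lower filters admit more of them, and from a mean of 1 CPM upwards the counts were 50 higher and 57 lower.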

How the data were processed

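Per the labels' protocols, libraries came from total RNA and an Illumina TruSeq small RNA preparation. The submitters' processing notes name StringTie, without role or version. For the aligner, the miRBase release and the build, nothing is given in the sources used here. Estimated counts, marked raw per the file headers, were deposited by row and library, and 87.9% (normal) and 88.0% (denervated) were whole within 1e-06. The authors also deposited a normalized signal, equal to the count times 1.11 (normal) or 0.746 (denervated), and a chi-square p-value over the 3 libraries that was not used here. The table held 1108 rows, 670 of them mature mouse rows, and 3 more lines are not analysed here.

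Mature names were cut at the first _ sign and equal names summed (7 names). Counts were divided by the total over all rows and expressed per 1000000. Log2 ratios used a pseudocount of 1 CPM. Intervals (scipy 1.17.1) used counts rounded to whole numbers and cover counting error only; the reads carry no molecular identifiers, so they may include copies of 1 molecule. A count of 0 was set to 3 counts for folds. The interval calculation was tested on simulated data. Factors for alternatives came from edgeR 4.0.16 (TMM) and DESeq2 1.42.0, on rounded counts.

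Column Control was taken as the normal sample, the one labelled normal. The 29 lists hold hairpin names, each standing for both arms. The miRNAs, lists and comparison were chosen with earlier results of these data known. The rule for named miRNAs took the 15 highest and 15 lowest ratios at a mean of at least 100 CPM, the 10 most abundant per library, the 8 largest gains and losses, up to 4 per list, 6 hairpins with unlike arms, 6 seed groups per direction, those at 0 and those near the filter. The others named (miR-19a-3p, miR-32-5p, miR-34c-3p, miR-92b-3p, miR-125a-5p, miR-155-5p, the miR-196 miRNAs, miR-200b-3p, miR-200c-3p, miR-214-3p, miR-223-3p, miR-490-3p, miR-503-5p, miR-673-3p, miR-3535, the equal pairs and the list members below the filter) were chosen after their values were seen. Positions and host genes are from RefSeq and GENCODE M21 (both GRCm38).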

Additional observations from a re-analysis of the deposited data

Results flagged for a closer look

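Rows outside the mature mouse names were not part of the comparison, and 68 of them passed the same filter. In 3 of these the level in denervated was at least 2-fold above that in normal, the control. A row named after human miR-4485-3p was at 24 counts in normal and 233 in denervated, 6.03-fold higher (3.96 to 9.61). A row named after opossum miR-34b-5p was at 52.5 and 433.5 counts, 5.13-fold higher (3.89 to 7.06), beside mouse miR-34b-5p at 7.33-fold. A row named after opossum miR-26-5p was at 279 and 1384 counts, 3.08-fold higher (2.71 to 3.52), whereas mouse miR-26a-5p was 1.23-fold higher. The labels do not say how the other species' names were assigned.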

How the results depend on the processing

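The counts of 24 higher and 27 lower miRNAs depended on the filter on low counts. Without a filter they were 68 and 75 of 600, with a mean of at least 1 CPM 50 and 57, and with a mean of at least 100 CPM 11 and 10 of 204. The other filters test other numbers of miRNAs. Under the other 9 alternatives the counts stayed between 21 and 28 higher and 24 and 27 lower. The median log2 ratio of -0.09 ranged from -0.14 to 0.03. The scaling shifts were 0.10 (TMM), 0.12 (DESeq2), 0.11 (the authors' signal) and 0.13 (total without miR-21a-5p) on the log2 scale, and the higher share of calls moved from 47.1% to at most 52.8%. Of 36 named miRNAs past 2-fold, none changed sign and 5 were under 2-fold in some alternative. These were miR-27b-3p and miR-326-3p as given above, and miR-204-5p (0.99), miR-29b-3p (0.94) and miR-182-5p (-0.94) with a pseudocount of 5. No paired analysis was possible because there is 1 library per condition, and for the same reason no library could be left out. Ratios of miRNAs with few counts, such as miR-34b-5p at 14 in normal, are limited by depth.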

Other observations

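Of the 68 rows outside the mature mouse names that passed the filter, 1 was at least 2-fold lower in denervated. It carries the name of the 3′ side of the mouse mir-1983 hairpin and was at 600 counts in normal and 231 in denervated, 4.18-fold lower (3.58 to 4.88).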
